A study of Bos taurus with 27 samples.

Results

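The colon of a calf in its first days of life is lined by absorptive and goblet cells, lies on layers of smooth muscle and connective tissue, and meets milk residues and its first microbes at the same time. Colostrum, the first milk, carries antibodies, growth factors and hormones that act on this wall, and what the wall does also depends on what the calf received before birth. Dams that calve for the first time and dams with earlier calvings differ in age and in the growth they still have to complete, so dam parity is one of the maternal conditions that can differ between newborns kept under the same regime.

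The comparison described here set calves of multiparous cows (C) against calves of primiparous heifers (H) among those that received colostrum right after birth (TRT0). It held 9 of the 27 calves of the study, 5 in TRT0_C and 4 in TRT0_H, chosen by treatment and parity alone. All were male Holstein calves taken from the dam at birth, tube-fed 1 meal of a pooled, heat-treated commercial colostrum, then given milk replacer every 6 h, and killed at 51 h of age. Each library came from the whole wall of the colon just beyond the ileo-cecal junction of 1 animal. The colostrum was therefore not that of the dam. In TRT6 and TRT12, with the same numbers of C and H calves, the meal was given at 6 h and 12 h. The labels give the treatment of each calf, and the parity of its dam was taken from the study's supplementary list of animals.

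The 9 libraries held 1721538 to 2473396 gene counts, so that 3 counts were worth 1.21 to 1.74 CPM (a gene's counts as a share of all gene counts of the calf, times 1000000). Of 20932 genes with any count, 14893 had 1 CPM or more in at least 4 of the 9 calves and were tested, and 3865 of these could be named. No 2 libraries agreed within sampling noise. The run names in the labels begin in 3 ways, called lanes 1, 2 and 3 here, although the labels do not say that each is a single sequencing lane and lane 3 carries another run number than the other two. TRT0_C had 3 calves in lane 2 and 2 in lane 3, and TRT0_H had 2 in lane 1 and 2 in lane 2. The lane could therefore be told apart from parity only in lane 2, with 3 calves against 2. Epithelial markers were present at similar levels in both groups. The adhesion molecule EPCAM had 433 ± 67.1 CPM in TRT0_C (mean ± SD, n = 5) and 445 ± 45.6 CPM in TRT0_H (n = 4), and the smooth muscle myosin MYH11 had 3553 ± 735 and 3690 ± 457 CPM, so both layers of the wall were in the samples. In such bulk tissue, fewer cells of a type and less RNA per cell cannot be told apart.

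The question was which genes of the colon differed with dam parity when colostrum was given at birth. One gene passed the test, and it was lower in the calves of multiparous cows. ENSBTAG00000023563, which has no name in the tables used here, had 34.8, 34.0, 31.5, 34.6 and 34.3 CPM in the 5 TRT0_C calves and 64.7, 58.1, 65.4 and 54.7 CPM in the 4 TRT0_H calves. Every TRT0_C calf was below every TRT0_H calf. These were 59 to 86 counts in the TRT0_C calves and 114 to 153 counts in the TRT0_H calves. The TRT0_C calves lay closer together than the sampling of that many reads gives, so their closeness is not read as a trait of the group. The means were 33.8 ± 1.34 CPM (n = 5) and 60.7 ± 5.18 CPM (n = 4), a log2 fold change of -0.93 ± 0.13 (SE) or 1.91-fold higher in TRT0_H (edgeR's quasi-likelihood test, FDR = 0.0314 by Benjamini and Hochberg over all genes). It was 1 of 14893 genes, or 0.00671%, at an FDR of 0.10 and a fold change of 1.2.

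The size of this difference held in lane 2 alone, with a log2 fold change of -0.94, but the call did not (FDR = 0.111, and 0.2 with the lane as a covariate). The call was also lost in the fit of all 27 calves (FDR = 1), without normalisation factors (FDR = 0.168) and when any of 6 calves was left out: TRT0_C replicate 2, 4 or 5, or TRT0_H replicate 1, 2 or 3, where the FDR reached 0.275 while the log2 fold change stayed between -0.96 and -0.90.

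The same gene was more scattered in the calves fed later, and whether its spread differed with treatment was not tested. In TRT6 it ranged from 24.1 to 83.7 CPM in the C calves and from 28 to 111 CPM in the H calves, and in TRT12 from 24.9 to 70.1 and from 28.3 to 107 CPM. The groups overlapped in both treatments. The parity difference was -0.65 ± 0.34 (SE) on the log2 scale in TRT6 and -0.22 ± 0.34 in TRT12, and neither differed from that in TRT0 (quasi-likelihood test of the difference, unadjusted p = 0.549 and 0.145).

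**Figure D1:**
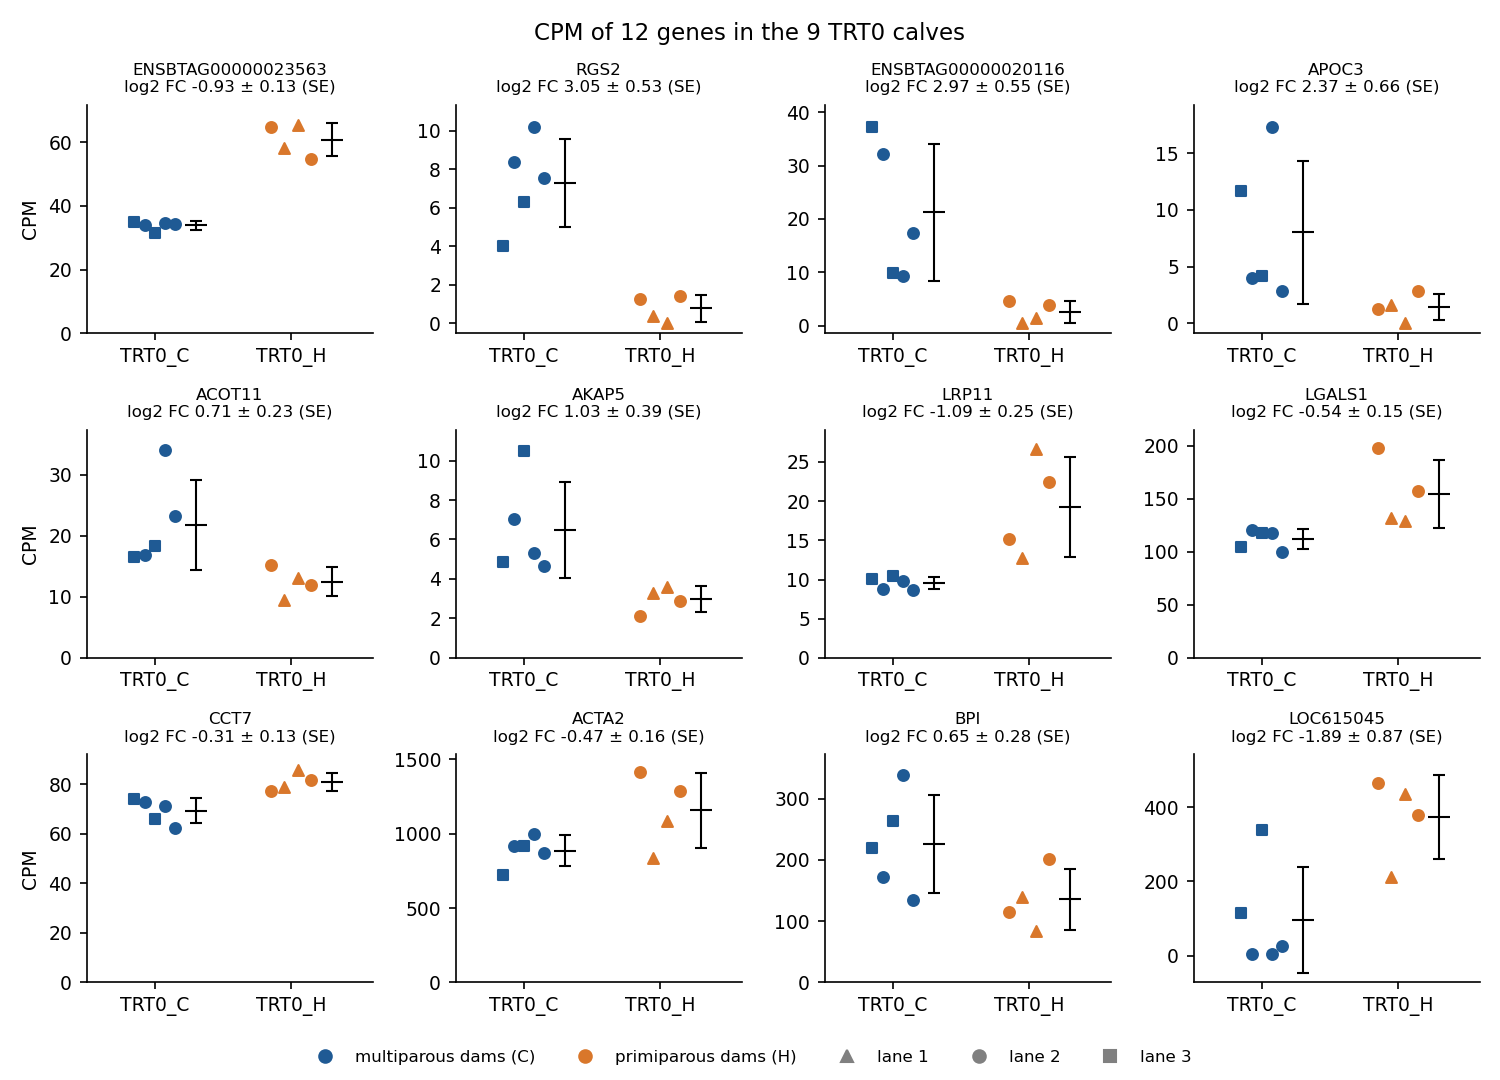
CPM (linear axes, each with its own scale) of 12 genes in the 5 TRT0_C and 4 TRT0_H calves, 1 symbol per calf, with the symbol's shape giving the lane and the black bar the mean ± SD. In the 9 panels from ENSBTAG00000023563 to CCT7 the groups do not overlap, while in those of ACTA2, BPI and LOC615045 they do.

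The second smallest p-value belonged to RGS2 (ENSBTAG00000034366). Its product, a regulator of G-protein signaling, speeds the switching off of the G proteins through which many hormones and transmitters act on smooth muscle and other cells. RGS2 had 4.04, 8.38, 6.29, 10.2 and 7.55 CPM in the TRT0_C calves and 1.27, 0.412, 0 and 1.44 CPM in the TRT0_H calves. All 5 C calves were above all 4 H calves, yet these are few reads: 10 to 23 counts in the C calves, and 3, 1, 0 and 3 counts in the H calves.

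Pooled over calves, 77 of 10625501 counts in TRT0_C stood against 7 of 9093947 in TRT0_H, a ratio of 9.41 with an exact 95% interval of 4.36 to 24.2 that covers counting error only. The fitted log2 fold change was 3.05 ± 0.53 (SE), and the gene did not pass over all genes (quasi-likelihood test, unadjusted p = 3.56e-05, FDR = 0.265). An exact two-sided permutation test of the mean CPM alone gave p = 0.0159, the smallest that 5 against 4 calves allow, and 0.0317 after adjustment over the 4 single values tested this way. RGS2 is described because the study singles it out from these same calves, so this p is not independent evidence. Its low p also makes the adjustment milder for the other values tested this way.

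Whether RGS2 passed depended on the test. It was called by edgeR's likelihood ratio test, which called 7 genes (0.0470%), by edgeR's exact test, by DESeq2 and when no filter on low counts was set, and it was not called in any other alternative. Within lane 2 the C calves had 7.55 to 10.2 CPM and the H calves 1.27 to 1.44 CPM, a log2 fold change of 2.51.

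**Figure D2:**
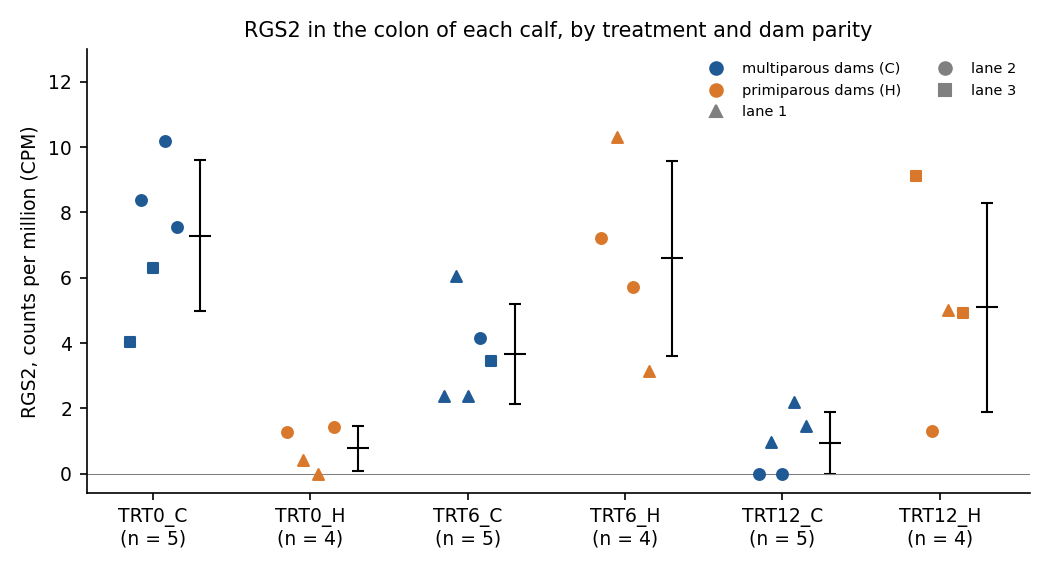
RGS2 in CPM (linear axis) in each of the 27 calves by colostrum treatment and dam parity, with the symbol's shape giving the lane and the bar the mean ± SD. The C calves lie above the H calves in TRT0, from 4.04 to 10.2 against 0 to 1.44 CPM, whereas in TRT6 and TRT12 the ranges overlap and the H calves have the higher mean.

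The parity difference of RGS2 in TRT0 did not recur in the calves fed later. In TRT6 the means were 3.68 ± 1.53 CPM in the 5 C calves and 6.59 ± 2.98 CPM in the 4 H calves. In TRT12 they were 0.926 ± 0.954 and 5.09 ± 3.19 CPM. The log2 fold change of C over H was -0.91 ± 0.52 (SE) in TRT6 and -2.22 ± 0.61 in TRT12, opposite in sign to that in TRT0, although neither passed over all genes.

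The test of the difference itself called RGS2 for TRT0 against TRT12 (difference of 5.26 ± 0.88 on the log2 scale, quasi-likelihood test, FDR = 0.0257), 1 of 14893 genes or 0.00671%. It did not call it for TRT0 against TRT6 (3.95 ± 0.83, FDR = 0.678), where 0 genes passed, 311 had an unadjusted p under 0.05 and the likelihood ratio test called 3. With the lane as a covariate the difference from TRT12 was 5.29 and no longer passed (FDR = 0.184). It also failed without TRT0_H replicate 2 (FDR = 0.118) or TRT12_H replicate 3 (FDR = 0.116), and passed in the other 25 of 27 fits that left out 1 calf. RGS2 is a low gene in all of these calves, with 23 counts at most.

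The 2 other RGS genes with a name and enough reads were at similar levels in both groups. RGS5, a pericyte marker of the same family, had 186 ± 36.2 CPM in TRT0_C and 184 ± 30.1 CPM in TRT0_H, and RGS17 had 2.67 ± 1.14 and 2.09 ± 0.244 CPM.

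The third smallest p-value came from ENSBTAG00000020116, named here after its values were seen and without a gene name. It had 37.2, 32.2, 9.96, 9.3 and 17.4 CPM in TRT0_C and 4.65, 0.412, 1.35 and 3.84 CPM in TRT0_H. The groups did not overlap, but the C calves spread from 9.3 to 37.2 CPM. The log2 fold change was 2.97 ± 0.55 (SE, quasi-likelihood test, FDR = 0.337), and it passed under the same 4 alternatives as RGS2. In TRT6 and TRT12 the difference had the same sign, 0.79 ± 0.78 and 1.01 ± 0.75, with overlapping calves.

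Beyond these, no further gene passed the test. An unadjusted p under 0.05 was found for 244 genes higher (1.64% of those tested) and 231 genes lower (1.55%) in TRT0_C. Together these 475 genes were a smaller share than the 0.05 that this threshold gives when no gene differs. Without normalisation factors the split was 486 higher and 82 lower, because the median log2 fold change of all genes moved by 0.095. The CPM of the groups did not overlap for 164 genes higher (1.10%) and 23 genes lower (0.154%) in TRT0_C, and once CPM was divided by the normalisation factors for 105 higher (0.705%) and 86 lower (0.577%). On both scales 75 genes were higher and 15 lower without overlap. For the named genes chosen by this rule, overlap is therefore given below on both scales.

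**Figure D3:**
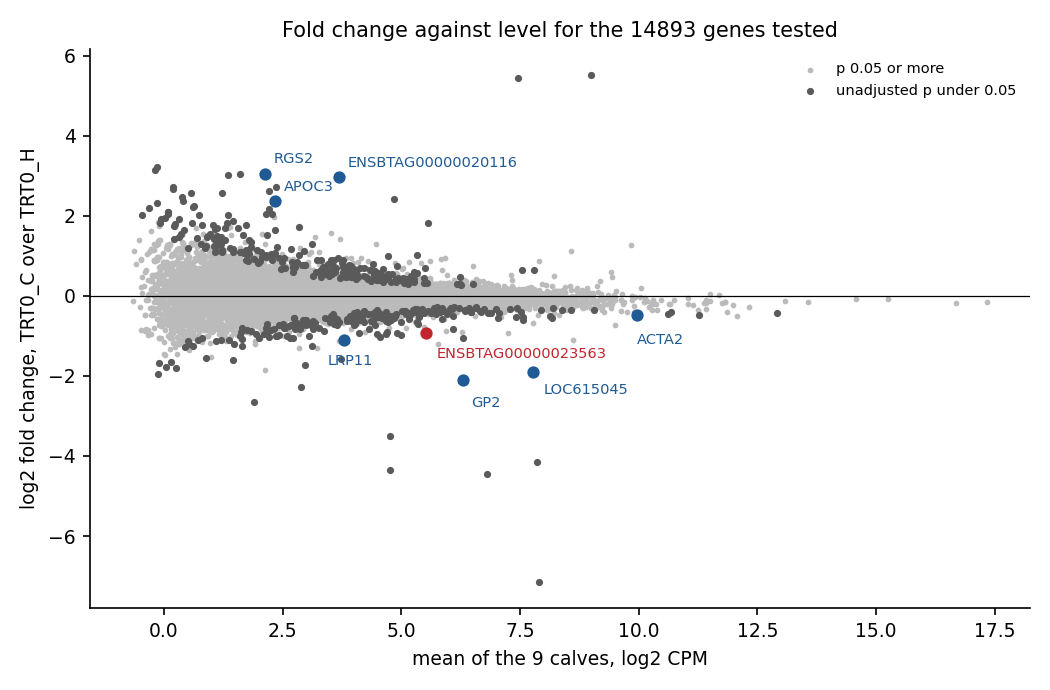
Log2 fold change of TRT0_C over TRT0_H against the mean level of the 9 calves (log2 CPM) for the 14893 genes tested, with dark points for the genes with an unadjusted p under 0.05 and coloured points for genes named in the text. ENSBTAG00000023563, in red at -0.93, is the gene that passed, whereas points farther from 0 stand at a larger spread between calves.

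Among the 3468 genes with a name and a mean of 3 CPM or more, 31 (0.894%) were higher in every TRT0_C calf than in every TRT0_H calf and 7 (0.202%) were lower, beside 1.10% and 0.154% of all tested genes. Once CPM was divided by the normalisation factors, the split turned to 11 higher (0.317%) and 24 lower (0.692%), a count also added after seeing the data. The 12 higher genes with the smallest p-values and all 7 lower ones by CPM are described here. None of the 19 passed the quasi-likelihood test over all genes: RGS2 had the lowest FDR, 0.265, and LRP11 the next, 0.934.

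Of the genes higher in TRT0_C, APOC3 and ACOT11 handle lipids. APOC3 (ENSBTAG00000012398), the apolipoprotein that slows the clearance of triglyceride-rich particles, had 11.7, 3.97, 4.2, 17.3 and 2.9 CPM in TRT0_C and 1.27, 1.65, 0 and 2.88 CPM in TRT0_H. Its groups touched, since the lowest C calf and the highest H calf were 2.9 and 2.88 CPM, and they overlapped after scaling. The log2 fold change was 2.37 ± 0.66 (SE, unadjusted p = 0.00267 from the quasi-likelihood test). It was 0.36 ± 0.90 in TRT6 and -1.68 ± 0.78 in TRT12.

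ACOT11, an enzyme that splits long-chain acyl-CoA into fatty acid and coenzyme A, had 16.6, 16.8, 18.4, 34.1 and 23.2 CPM against 15.2, 9.48, 13.1 and 12.0 CPM. These did not overlap on either scale, with a log2 fold change of 0.71 ± 0.23. In TRT6 the value was 0.43 ± 0.30 and in TRT12 -0.26 ± 0.29.

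A further pair carry signals inside the cell. PAK3, a kinase switched on by the small G proteins RAC1 and CDC42, had 4.48 ± 1.70 CPM in TRT0_C and 1.89 ± 0.348 CPM in TRT0_H (log2 fold change 1.14 ± 0.43). These are few reads, 6 to 15 counts in the C calves and 4 to 5 in the H calves. AKAP5, which holds protein kinase A at the cell membrane, had 4.85, 7.06, 10.5, 5.32 and 4.65 CPM against 2.11, 3.3, 3.61 and 2.88 CPM, or 1.03 ± 0.39. AKAP5 was the only one of the 12 with a parity difference of nearly the same size in TRT6, at 0.93 ± 0.43, and it was -0.031 ± 0.41 in TRT12. HOMER2, a scaffold for glutamate receptors and calcium channels, stood at 8.36 ± 1.48 and 5.49 ± 0.738 CPM.

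The others serve RNA and protein handling or have no role stated here. The splicing factor RBM6 had 102 ± 7.35 CPM in TRT0_C and 77.4 ± 10.5 CPM in TRT0_H, and CASC3, a core part of the exon junction complex that marks spliced messages, had 87.8 ± 6.99 and 71.2 ± 5.18 CPM. LAP3, an aminopeptidase that trims peptides, had 88.5, 71.5, 89.7, 85.5 and 86.6 CPM against 61.7, 63.9, 69.9 and 67.2 CPM. LAP3 went the opposite way in the calves fed later, with -0.51 ± 0.23 in TRT6 and -0.61 ± 0.22 in TRT12 against 0.28 ± 0.14 in TRT0. LRRC42, C17H4orf46 and LOC101903064, the last annotated as COMM domain-containing protein 6, had log2 fold changes of 0.46, 0.72 and 0.87. LOC101903064 had only 5 to 14 counts in the C calves and 3 to 6 in the H calves. Of the 12 genes, 7 had an unadjusted p under 0.05, 6 were free of overlap after scaling, and 6 had the same sign in TRT6 and 4 in TRT12. After scaling the groups overlapped for APOC3, PAK3, LAP3, LRRC42, C17H4orf46 and LOC101903064.

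Of the lower genes, LRP11 (ENSBTAG00000032007) differed most. This member of the low-density lipoprotein receptor family had 10.1, 8.83, 10.5, 9.75 and 8.71 CPM in TRT0_C and 15.2, 12.8, 26.6 and 22.5 CPM in TRT0_H. The C calves lay close together and the H calves spread from 12.8 to 26.6 CPM. These were 15 to 25 counts in the C calves and 31 to 59 in the H calves. So few reads would by sampling alone spread the C calves more widely. The log2 fold change was -1.09 ± 0.25 (SE, unadjusted p = 0.000502 from the quasi-likelihood test), with -0.17 ± 0.37 in TRT6 and -0.33 ± 0.36 in TRT12.

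LGALS1 (ENSBTAG00000015089) encodes galectin 1, a sugar-binding protein made mostly by stromal and muscle cells. It had 104, 120, 118, 118 and 100 CPM against 198, 132, 129 and 157 CPM, or -0.54 ± 0.15 on the log2 scale, and the groups overlapped after scaling. In TRT6 it was -0.057 ± 0.20 and in TRT12 0.21 ± 0.20.

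The remaining 5 were housekeeping genes with small differences. CCT7, a subunit of the chaperonin that folds actin and tubulin, had 69.3 ± 5 CPM in TRT0_C and 80.8 ± 3.67 CPM in TRT0_H. GUSB, the lysosomal beta-glucuronidase, had 30.8 ± 4.50 and 38.0 ± 0.911 CPM. NDUFB2 of mitochondrial complex I had 9.87 ± 2.02 and 13.3 ± 1.38 CPM, TPGS2 of the enzyme that adds glutamate to tubulin had 20.9 ± 2.80 and 26.8 ± 2.82 CPM, and LIG4, the ligase of double-strand break repair, had 16.5 ± 1.24 and 19.7 ± 1.56 CPM. Of the 7 lower genes, 6 had an unadjusted p under 0.05, 4 were free of overlap after scaling, and 6 had the same sign in TRT6 and 5 in TRT12. After scaling the groups overlapped for LGALS1, TPGS2 and GUSB.

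**Figure D4:**
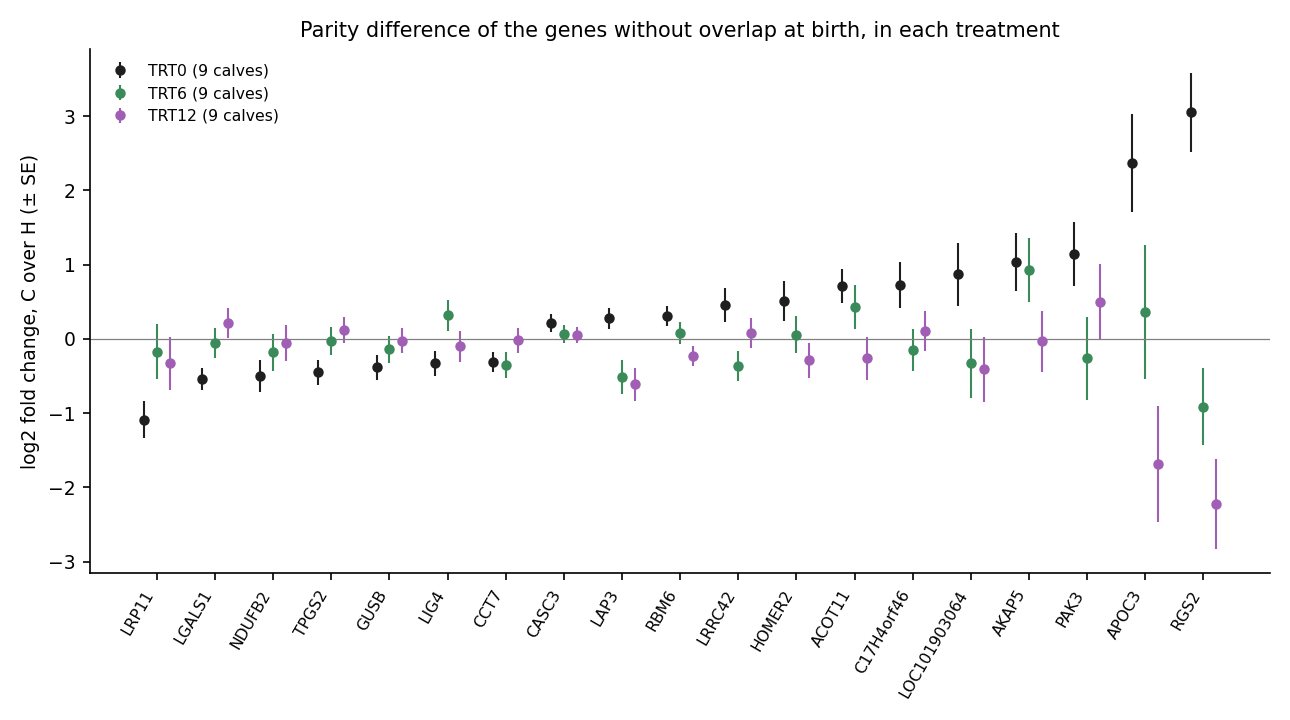
Log2 fold change of C over H (± SE) in TRT0, TRT6 and TRT12 for the 19 named genes whose CPM did not overlap between TRT0_C and TRT0_H, ordered by their value in TRT0. The TRT0 values were used to choose the genes, and those of TRT6 and TRT12 come from other calves: RGS2 runs from 3.05 in TRT0 to -2.22 in TRT12, while most values of TRT6 and TRT12 lie nearer to 0.

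The calves of TRT6 and TRT12 also allowed all 90 genes without overlap on both scales to be looked at again, in animals that did not choose them. Of the 75 higher genes, 52 (69.3%) were higher in C than in H in TRT6, where 52.0% of all tested genes were, and 28 (37.3%) in TRT12, where 48.3% were. Their median log2 fold change was 0.16 in TRT6 and -0.095 in TRT12, beside 0.013 and -0.0085 over all genes. This background was not matched for level. Over the 3724 genes with the lowest mean CPM, up to 6.02 CPM, the medians were 0.15 in TRT6 and -0.08 in TRT12. Those genes held 53 of the 164 that were higher in TRT0_C without overlap by CPM. Of the 15 lower genes, 9 (60%) were lower in TRT6, where 48% of all tested genes were, and 10 (66.7%) in TRT12, where 51.7% were, with medians of -0.042 and -0.057. For the higher genes the 2 later treatments thus lay on opposite sides of the background of all genes. The genes with the lowest mean CPM did so as well, by nearly the same amounts.

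Among immune genes, CCL14 (ENSBTAG00000010738), a chemokine that attracts monocytes, had 7.68, 12.8, 9.96, 4.87 and 5.81 CPM in TRT0_C and 4.65, 4.12, 3.16 and 5.28 CPM in TRT0_H. One C calf lay within the range of the H calves. The log2 fold change was 0.85 ± 0.36 (quasi-likelihood test, FDR = 1), and the exact permutation test of CPM gave p = 0.0317 or 0.0423 after adjustment over 4 values, RGS2 among them. In TRT6 the difference was larger, 11.3 ± 3.29 CPM in C against 2.46 ± 1.26 CPM in H and 2.09 ± 0.42 on the log2 scale (FDR = 0.431), and in TRT12 it was -0.28 ± 0.37. The differences between treatments did not pass (FDR = 1 and 0.999).

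BPI, a protein of neutrophils and epithelia that binds and kills Gram-negative bacteria, had 220, 172, 264, 339 and 134 CPM against 115, 140, 84.8 and 202 CPM. Its groups overlapped, at a log2 fold change of 0.65 ± 0.28 (unadjusted p = 0.0367 from the quasi-likelihood test), and within lane 2 it was 0.28. STAT3, which carries the signals of interleukins 6 and 10 to the nucleus, had 256 ± 40.2 CPM in TRT0_C and 277 ± 78.0 CPM in TRT0_H, a log2 fold change of -0.20 ± 0.17.

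Gene lists showed the same scale of difference. Lists of pathways of the neonatal colon and of cell types held 293 tested genes with a name. None was called, 3 (1.02%) were higher and 8 (2.73%) lower at an unadjusted p under 0.05, and their median log2 fold change was -0.094. Over all 14893 genes the median was 0.00099 and 49.8% were below 0, but genes with a name are mostly abundant ones, and for the 3723 genes with the highest mean CPM, from 40.9 CPM up, the median was -0.023 and 56.7% were below 0.

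Among the 23 lists with 5 or more tested genes, the lowest medians were those of fibroblast (-0.29), vascular endothelial (-0.26), smooth muscle (-0.22) and fatty acid oxidation genes (-0.22). The medians of 9 lists, these 4 among them, kept their sign within lane 2, without normalisation factors and when any 1 calf was left out, and those of 14 lists changed it in at least 1 of these settings, which were applied to the lists after seeing the data. With normalisation factors all 17 tested markers of smooth muscle were below 0, with a median of -0.22, and 3 had an unadjusted p under 0.05. Without the factors the median was -0.13. By mean CPM, LMOD1 (76.2 in TRT0_C against 73.7 in TRT0_H) and SYNPO2 (451 against 433) were higher in TRT0_C. PDLIM7 was equal at 106 CPM, and the other markers were lower. ACTA2, the alpha actin of smooth muscle, had 720, 919, 914, 999 and 870 CPM in TRT0_C and 1412, 834, 1087 and 1286 CPM in TRT0_H. One H calf, replicate 2, lay among the C calves, and the log2 fold change was -0.47 ± 0.16 (quasi-likelihood test, unadjusted p = 0.0106, FDR = 1). ACTG2, the gamma actin of the gut's muscle, had 2159 ± 423 and 2878 ± 497 CPM (-0.48 ± 0.19), and desmin (DES), the muscle's intermediate filament, had 1390 ± 267 and 1777 ± 415 CPM (-0.44 ± 0.18). The myosin MYH11, however, was at -0.14 ± 0.19.

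The summed CPM of the 17 smooth muscle markers ran from 10054 to 16421 in TRT0_C and from 13119 to 18384 in TRT0_H, so the groups overlapped. The median of the list was -0.34 within lane 2, between -0.29 and -0.11 when 1 calf was left out, 0.11 in TRT6 and 0.016 in TRT12. HSPB6, a small heat shock protein that is abundant in smooth muscle, had 165 ± 28.8 and 206 ± 56.0 CPM (-0.41 ± 0.18), beside a median of -0.18 for the 12 heat shock proteins.

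All 10 fibroblast markers were below 0 as well, with a median of -0.29 and none at an unadjusted p under 0.05. The collagens COL1A1, COL1A2 and COL3A1 had log2 fold changes of -0.41 ± 0.24, -0.32 ± 0.19 and -0.27 ± 0.17. Their summed list reached 11092 to 15231 CPM in TRT0_C and 10806 to 19522 CPM in TRT0_H, and its median was -0.55 within lane 2, -0.13 in TRT6 and 0.27 in TRT12. Of the 5 vascular endothelial markers 4 were below 0, with a median of -0.26. PECAM1, an adhesion molecule of vessel walls, had 73.7 ± 15.8 and 89.1 ± 14.3 CPM (-0.36 ± 0.15), VWF had 183 ± 55.8 and 208 ± 42.0 CPM, and KDR 95.4 ± 19.1 and 89.8 ± 13.3 CPM. The part of cell make-up in the values of single genes such as LGALS1 was not tested.

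The median of 11 epithelial markers was -0.11, but it was 0.032 within lane 2, -0.004 without normalisation factors and between -0.17 and 0.0028 when 1 calf was left out. EPCAM was at -0.14 ± 0.14, CDH1 at -0.11 ± 0.13 and CDH17 at -0.13 ± 0.16, the last 2 being cadherins that join epithelial cells. Summed, the 11 markers ran from 3164 to 4275 CPM in TRT0_C and from 3357 to 4296 CPM in TRT0_H. The 5 goblet cell markers had a median of -0.13, and 0.046 within lane 2, with TFF3, CLCA1 and AGR2 at 0.024 ± 0.21, -0.13 ± 0.28 and 0.0075 ± 0.30. The 5 enteroendocrine markers had a median of -0.039, and 0.062 without normalisation factors. SST, CHGA and SCG3 were at -0.52 ± 0.27, -0.19 ± 0.20 and -0.039 ± 0.27. The 8 enteric neuron markers had a median of -0.10, which reached 0.045 when 1 calf was left out, with SNAP25, UCHL1 and ELAVL2 at -0.34 ± 0.31, -0.12 ± 0.24 and 0.078 ± 0.67. The signs of TFF3, CLCA1, AGR2, SCG3, KDR, UCHL1 and ELAVL2 were not stable across lanes, scaling or left-out calves.

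Barrier and transport genes held 1 member each at an unadjusted p under 0.05. MARVELD2, which seals the corners where 3 cells meet, had 10.9, 11.9, 17.8, 11.1 and 17.4 CPM in TRT0_C and 18.2, 21.4, 19.8 and 15.8 CPM in TRT0_H. One H calf, replicate 4, lay below the 2 highest C calves, and the log2 fold change was -0.55 ± 0.23, beside a median of -0.059 for 15 tight junction genes. CA2, the carbonic anhydrase that feeds acid and bicarbonate transport, had 48.8 ± 14.6 and 68.9 ± 24.6 CPM (-0.57 ± 0.26), beside -0.092 for 23 genes of ion and water transport. Within lane 2, CA2 was at -1.06. It was -0.41 ± 0.33 in TRT6 and 0.86 ± 0.33 in TRT12.

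For 15 of 16 glycolysis genes, which break down sugar for energy, the log2 fold change was below 0, with a median of -0.20 and none at an unadjusted p under 0.05. The median of this list was -0.23 in TRT6 and 0.14 in TRT12. Of 15 genes of fatty acid oxidation and ketogenesis 12 were below 0, with a median of -0.22, and that median was -0.12 in TRT6 and 0.0057 in TRT12. ACAA2, which carries out the last step of mitochondrial beta-oxidation, had a log2 fold change of -0.28 ± 0.13. Cholesterol synthesis had a median of 0.067 over 16 genes, and it changed sign within lane 2 (-0.016). The list of receptors for colostral growth factors and of IGF binding, which also holds the ligands IGF2 and AREG, had all 11 tested genes below 0, with a median of -0.12. That median was -0.024 without normalisation factors and between -0.19 and -0.023 when 1 calf was left out. By mean CPM, ERBB3, INSR and PDGFRB were higher in TRT0_C, ERBB2 was equal, and the other members were lower.

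The remaining medians were -0.012 for 18 chaperones and unfolded protein response genes of the endoplasmic reticulum, -0.031 for 12 antigen presentation genes, -0.041 for 16 cell cycle genes, -0.058 for 18 genes of G-protein second messengers, -0.073 for 10 cytokines and their receptors and 0.064 for 10 chemokines and theirs. Those of 7 immediate-early genes, 5 clock genes and 5 innate sensing and antimicrobial genes were -0.15, 0.11 and 0.18. For 19 of the 42 lists fewer than 5 genes could be named and tested, among them those of T cells, B cells, plasma cells, macrophages, mast cells and enteric glia, and no statement is made about them.

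**Figure D5:**
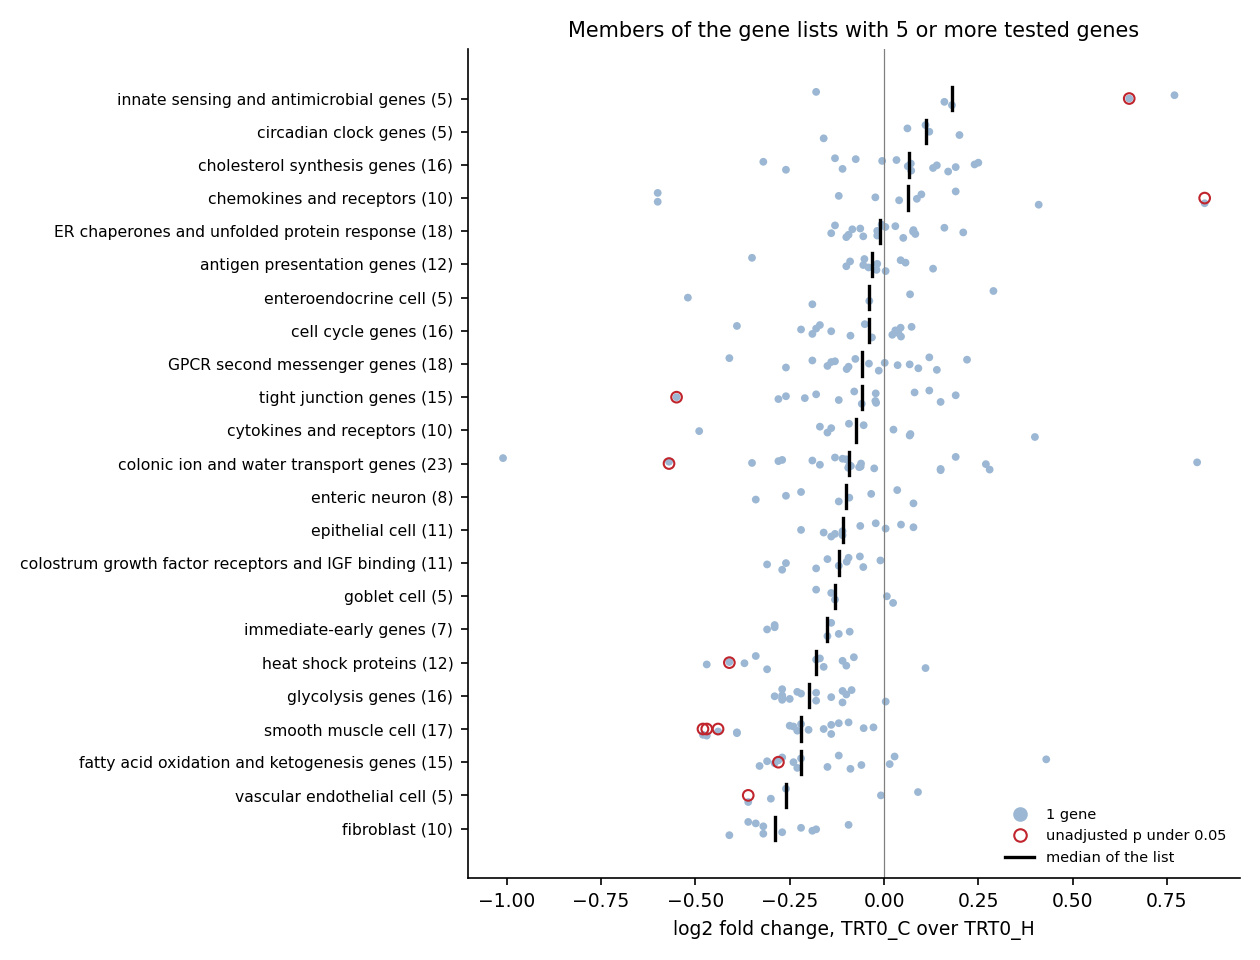
Log2 fold change of TRT0_C over TRT0_H for the tested members of the 23 lists with 5 or more such genes (number in brackets), 1 point per gene, with a black line at the median and a red ring at an unadjusted p under 0.05. The lists are ordered by their median, from fibroblast markers at -0.29 to innate sensing and antimicrobial genes at 0.18.

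A few genes of host defence varied widely between the calves of at least 1 group. They are named here after their values were seen. LOC615045, annotated as a membrane-associated phospholipase A2, an enzyme family with antibacterial members, had 114, 3.53, 338, 3.54 and 26.1 CPM in TRT0_C and 465, 213, 434 and 379 CPM in TRT0_H. The C calf in replicate 3 lay among the H calves, and the log2 fold change was -1.89 ± 0.87 (quasi-likelihood test, FDR = 1). Within lane 2 it was -5.52 (FDR = 3.64e-05 from 3 against 2 calves). With the lane as a covariate it also passed (-5.51, FDR = 0.00712), but that difference rests on the same lane 2 calves. The C calves of lane 3, at 114 and 338 CPM, do not enter the parity difference in either fit.

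GP2, a glycoprotein of antigen-sampling M cells and of secretory granules, had 5.66, 1.77, 143, 2.21 and 6.97 CPM against 150, 2.47, 307 and 88.3 CPM. The same C calf was high, and 1 H calf was as low as the other C calves. The log2 fold change was -2.09 ± 1.05, and -5.25 within lane 2 (FDR = 3.75e-06), but with the lane as a covariate it did not pass (-5.25 ± 1.44, FDR = 0.738). In TRT6 and TRT12 the values for GP2 were 0.75 ± 1.21 and 2.49 ± 1.25, and those for LOC615045 were 0.09 ± 1.30 and 0.40 ± 1.28. Only that of GP2 in TRT12 was larger than its SE, so the signs of the others are not determined. For neither gene did the difference from TRT0 pass over all genes. ITLN2, a lectin that binds sugars of microbes, had 101, 118, 63.5, 0 and 110 CPM against 0, 0.412, 0.451 and 153 CPM, so that it was near 0 in 1 C calf and in 3 of 4 H calves.

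The number of genes detected was also compared. TRT0_C calves had 14616 to 15328 genes at 1 CPM or more (14827 ± 292, n = 5) and TRT0_H calves 14044 to 14597 (14372 ± 247, n = 4), without overlap (exact permutation p = 0.0159, adjusted p = 0.0317 over 4 values). The 4 values include RGS2, already known to separate these calves, which makes this adjustment milder. This threshold asks for 2 or 3 reads depending on the total of the library. It asked for 2 reads only in TRT0_C replicates 3 and 5, with totals of 1906950 and 1721538. In the other TRT0_C calves and in all 4 TRT0_H calves it asked for 3 reads, so the cutoff was not the same in both groups. When every library was thinned to the smallest total and genes with 2 or more reads were counted, the groups overlapped, with 15011 ± 357 and 14730 ± 237 genes (exact permutation p = 0.238). They also overlapped once CPM was divided by the normalisation factors, where TRT0_H replicate 4 rose from 14044 to 14768 genes. That is above the 14616, 14760 and 14624 genes of TRT0_C replicates 1, 2 and 3. Between levels, the median log2 fold change was 0.068 over the 3724 genes with the lowest mean CPM, up to 6.02 CPM, and -0.023 over the 3723 genes with the highest.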

How the data were processed

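RNA from the colon of 9 calves was compared, with 18 further calves used only for the parity difference in TRT6 and TRT12. The members and gene lists were chosen with earlier results of these data known. The authors deposited raw gene counts, made by removing reads that failed the chastity filter, aligning with TopHat2 2.1.1 to UMD3.1, sorting with SAMtools 1.4 and counting per Ensembl gene with HTSeq-count, where reads on more than 1 gene were dropped. The strand setting and Ensembl release are not given in the sources used here, so overlapping and antisense genes are uncertain.

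Tests covered genes that reached 1 CPM in 4 or more of the 9 calves, in edgeR 4.0.16 in R 4.3.3 (TMM factors 0.892 to 1.11, quasi-likelihood test, biological coefficient of variation 0.213, no covariate) and called at an FDR of 0.10 and a fold change of 1.2. The parity difference between treatments was tested in 1 fit of 27 calves, which also gave the fold changes and SE of TRT6 and TRT12. Alternatives used the likelihood ratio and exact tests, DESeq2 1.42.0, other filters, scaling and lane settings, and left-out calves. The steps were checked on simulated counts. Single values had exact permutation tests, in scipy 1.17.1.

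Names came from the study's supplementary tables, which name 4046 of 24616 identifiers. Gene positions and sequences were not used here. Genes named are the one called, RGS2, CCL14, the study's 8 representative immune genes (only STAT3 had a name and passed the filter), up to 12 higher and 12 lower named genes with a mean of 3 CPM and no overlap, up to 4 members per list with an unadjusted p under 0.05, and the first 3 tested markers of each cell type with 5 or more tested markers. The p-values measure the spread between calves.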

Additional observations from a re-analysis of the deposited data

Results flagged for a closer look

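The parity difference of RGS2 in TRT0 differed from that in TRT12 by 5.26 on the log2 scale (FDR = 0.0257 in the 27-calf edgeR quasi-likelihood fit). The call was lost with the lane as a covariate, at an FDR of 0.184.

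In 106 sets of 4 or 5 calves examined, 6 held a calf far from the rest of its group. Chance gives about 1 in 20, so 6 is near the number that it gives. TRT0_C replicate 3 had 31.5 CPM of ENSBTAG00000023563, beside 34.0 to 34.8 CPM in the others, and the same calf had 143 CPM of GP2, beside 1.77 to 6.97 CPM. TRT0_C replicate 2 had 71.5 CPM of LAP3, beside 85.5 to 89.7 CPM. Among the H calves, replicate 4 had 39.3 CPM of GUSB, beside 37.4 to 37.6 CPM, and 153 CPM of ITLN2, beside 0 to 0.451 CPM. Replicate 2 of the H calves had 146 CPM of VWF, beside 227 to 232 CPM. The gaps of ENSBTAG00000023563, at 59 to 86 counts in TRT0_C, and of GUSB, at 82 to 91 counts in TRT0_H, lie within counting error. GP2 and ITLN2 were included after their values were seen.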

How the results depend on the processing

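The single call became 7 genes with edgeR's likelihood ratio and exact tests (the same 7), 3 with DESeq2, 6 without a filter on low counts, 2 with the lane as a covariate, 4 in lane 2 alone, 0 without normalisation factors, 0 in the fit of all 27 calves, and 0 to 2 when 1 calf was left out. Of the 7 genes, 4 had no overlap between groups and 1 had 98.4% of its summed CPM in 1 calf. The count at an unadjusted p under 0.05 was 475 and became 304 with DESeq2, 852 with the lane as a covariate, 1188 in lane 2 alone and 346 to 1012 with 1 calf left out, the highest without TRT0_H replicate 2. The 187 genes without overlap became 4158 in lane 2 alone and 292 to 684 with 1 calf left out, since fewer calves overlap less often. RGS2 passed at a log2 fold change of 3.05 with the likelihood ratio test, the exact test or no filter and 3.14 with DESeq2, which made it the 1 called member of the gene lists there, and it stayed between 2.67 and 3.47 when 1 calf was left out. The likelihood ratio test called 3 genes for TRT0 against TRT6. For TRT0 against TRT12, 0 were called with the lane as a covariate and 0 to 1 with 1 calf left out, settings added after seeing the data. The difference in genes at 1 CPM, 454, lay between 273 and 644 in all settings, also added later, but the groups overlapped after thinning and after scaling.

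Signs turned for genes that had not passed. With the lane as a covariate and in lane 2 alone these were ITLN2 (-0.20 and -0.18), CLCA1 (0.16 and 0.17) and AGR2 (-0.67 and -0.66), in lane 2 alone UCHL1 (0.011), and without normalisation factors SCG3 (0.062), KDR (0.088) and the median of the 3723 genes with the highest mean CPM (0.071). With 1 calf left out, AGR2 ranged from -0.18 to 0.29, CLCA1 from -0.40 to 0.095, ELAVL2 from -0.35 to 0.49, KDR from -0.091 to 0.083, SCG3 from -0.20 to 0.22 and TFF3 from -0.10 to 0.18. The causes were not tested. Depth limits genes such as RGS2, with 0 to 3 counts in TRT0_H. No paired analysis was possible because the replicate numbers only name calves, and each calf has its own dam.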

Other observations

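Large fold changes among abundant genes mostly came from single calves, in a count made after seeing the data. Of the 11 tested genes with a log2 fold change of 1.5 or more in either direction and a mean of 20 CPM or more, none separated the groups, and 7 had more than 50% of their summed CPM in 1 calf. ENSBTAG00000046133 had 4558 CPM in 1 TRT0_C calf and a median of 1.05 CPM in that group, and ENSBTAG00000046695 had 2128 CPM in 1 TRT0_H calf and a median of 5.42 CPM. None of the 187 genes whose CPM did not overlap had more than 50% of its summed CPM in 1 calf.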
